A study of Arabidopsis thaliana with 18 samples.

Results

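Glutamate receptor-like (GLR) genes encode plant relatives of the ionotropic glutamate receptors of animals. Their products are ligand-gated cation channels, opened by amino acids, that let calcium and other cations pass a membrane. In leaves the family is best known for carrying wound-evoked electrical signals and calcium waves from a damaged leaf to distant ones, and for calcium entry during immune responses.

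The members were all probe sets matched to a single gene whose symbol, with or without a leading AT, begins with GLR, CNGC, MSL, CAX, CPK, CDPK, CIPK or CBL and a number, which would take in channels, transporters, kinases and calcium sensors. The rule found 8 members, all GLR channels, among 13513 probe sets with a single named gene and 22746 tested. They are GLR1.2 (AT5G48400) and GLR1.4 (AT3G07520) of clade 1, GLR2.7 (AT2G29120), GLR2.8 (AT2G29110) and GLR2.9 (AT2G29100) of clade 2, and GLR3.3 (AT1G42540), GLR3.5 (AT2G32390) and GLR3.6 (AT3G51480) of clade 3. RefSeq lists 19 genes with GLR symbols. A further probe set was matched to GLR2.2 and GLR2.3 together and was not a member. No probe set with a single named gene met the rule for cyclic nucleotide-gated channels, MscS-like mechanosensitive channels, cation exchangers or the calcium-dependent kinases and their sensors, and these families were not analysed here. GLR2.9, GLR2.8 and GLR2.7 follow each other directly on chromosome 2 in the RefSeq annotation of TAIR10.1. GLR3.5 and GLR1.2 also have another GLR gene directly beside them, GLR5 and GLR1.3 in that order. Whether probes of any of these neighbours also bind each other's transcripts was not tested.

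The arrays came from rosettes of Columbia (Col-0) Arabidopsis plants, 20 days old and grown in continuous light. Plants in a soundproof chamber received sound of 250, 500, 1000, 2000 or 3000 Hz at 80 dB for 1 h, and control plants spent 1 h in the chamber in silence. Each of the 6 groups had 3 arrays labelled as biological replicates, 18 in all. The labels do not say whether each replicate was 1 plant or a pool, so p-values measure the spread between these samples. The rosette held leaf, vein and guard cells together, and a lower signal from fewer cells of a type cannot be told apart from less RNA per cell.

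Values below are log2 signals as deposited, and differences are in log2 units with the standard error (SE) of the limma fit over all 18 arrays. A member was called changed when its limma p, adjusted over all 22746 probe sets by the Benjamini-Hochberg method, was under 0.05. All 5 comparisons with silence share the same 3 control arrays. Those controls were the least alike of any group: their mean variance over all probe sets was 0.103, against 0.0275 to 0.0461 in the sound groups. The bacterial poly-A spike controls split the arrays: they averaged between 5.37 and 5.59 (log2) for the 12 arrays from silence, 250, 500 or 1000 Hz (the lower spike set). On the remaining 6, from 2000 or 3000 Hz, it was 5.99 to 6.51 (the higher spike set). The actin 3' minus 5' difference had group means of 3.34 to 3.57. Of 19 listed marker genes of rosette mesophyll, guard cells, root and pollen, 6 were measured. The leaf gene RCA (Rubisco activase) lay at 14.09 to 14.32 on all arrays. The root gene PYK10 varied widely, with 8.67 on control replicate 1 and 4.14 to 7.94 elsewhere. The other root genes measured, EXPA7 and EXPA18, varied less, at 5.08 to 5.46 and 4.61 to 5.13 on all arrays.

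**Figure D1:**
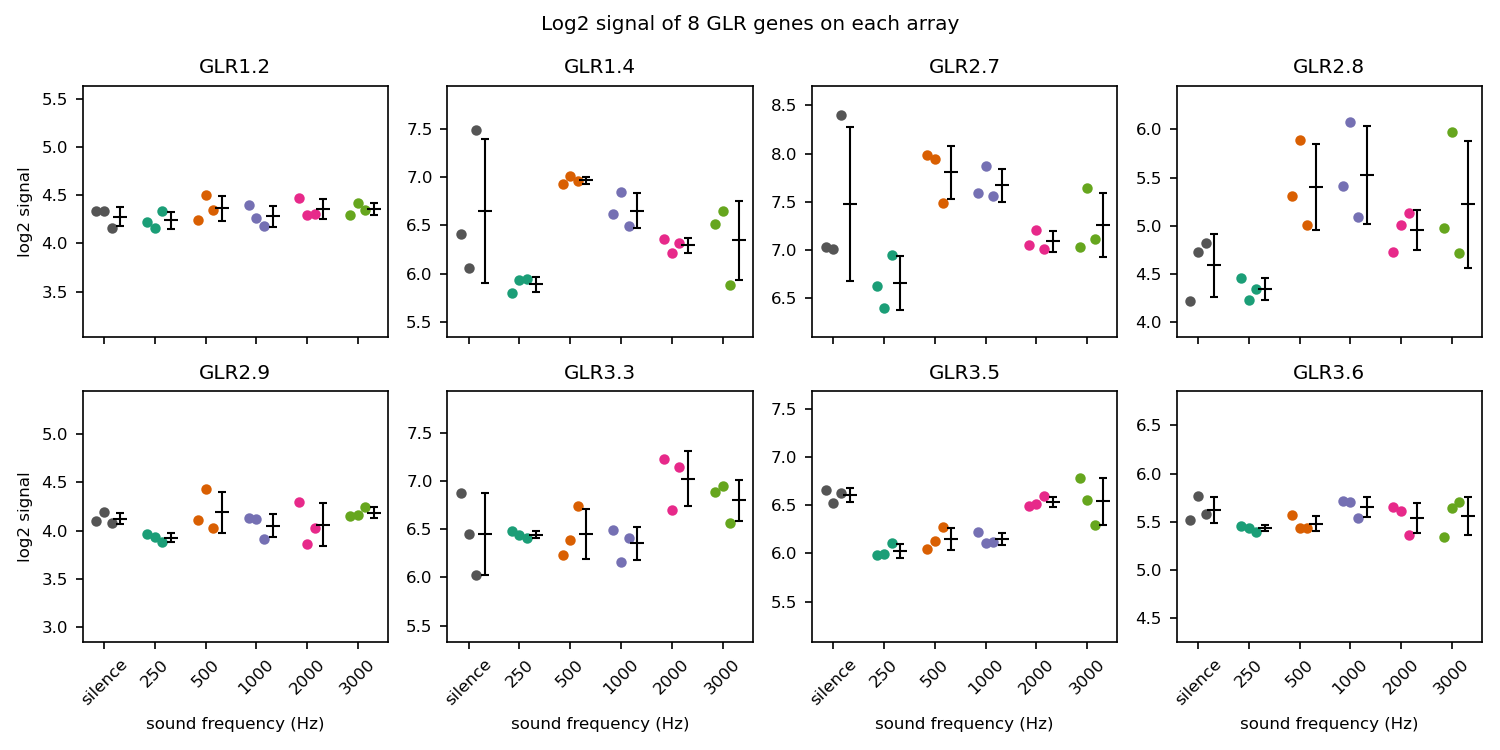
Log2 signal of each of the 8 GLR genes (y axis, the same span in every panel) on the 3 arrays of silence and of each frequency (x axis, Hz). Points are arrays, and the black marks are the group mean with its SD (n = 3). GLR1.4 and GLR2.7 have 1 control array, replicate 3, above all others, and GLR3.5 lies lower at 250, 500 and 1000 Hz than in silence.

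GLR3.5 was the 1 member called against silence. It encodes a clade 3 channel known from guard cell and seed responses, with isoforms directed to mitochondria and plastids. Its log2 signals were 6.66, 6.52 and 6.63 in silence. They were 5.98, 5.99 and 6.11 at 250 Hz, 6.04, 6.13 and 6.27 at 500 Hz, and 6.22, 6.11 and 6.12 at 1000 Hz. All 9 of these sound arrays lay below all 3 controls. Groups that did not overlap the controls were found for 13.4%, 22% and 14.1% of all probe sets at 250, 500 and 1000 Hz. At 2000 Hz the GLR3.5 signals were 6.49, 6.51 and 6.59. At 3000 Hz they were 6.78, 6.55 and 6.29, so both higher frequencies overlapped the controls.

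GLR3.5 fell at 500 Hz by 0.46 on the log2 scale (SE 0.11, 1.37-fold lower, limma adjusted p = 0.0224). It was the 1 of 8 GLR genes called there, where 8.91% of all probe sets were called, 4.77% as lower. The difference at 250 Hz was larger, -0.58 ± 0.11 (1.49-fold lower), but its limma adjusted p was 0.0693. Only 0.044% of all probe sets were called at 250 Hz. At 1000 Hz, where 0 probe sets were called (0%) and 3516 had an unadjusted p under 0.05, the difference of GLR3.5 was -0.45 ± 0.11 (limma adjusted p = 0.128, unadjusted p = 0.000793). The differences at 2000 and 3000 Hz were -0.07 ± 0.11 and -0.06 ± 0.11, with 95% intervals of -0.31 to 0.16 and -0.30 to 0.17. For the average of the 5 frequencies, GLR3.5 fell by 0.32 (SE 0.08, limma adjusted p = 0.0460), again as the 1 of 8 members called, against 3.69% of all probe sets (2.05% as lower).

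The GLR3.5 call at 500 Hz was lost without control replicate 1 or 3 or without 500 Hz replicate 1 or 2, where the difference stayed between -0.40 and -0.45 (adjusted p up to 0.0893). Without control replicate 2 the calls at 250, 500 and 1000 Hz all passed (limma adjusted p = 0.00443, 0.0111 and 0.0185). In those fits 2175, 4075 and 2177 of the 22746 probe sets were called, against 10, 2026 and 0 with all arrays. For the average of the frequencies, the call passed with 3 of the 18 arrays left out in turn and was lost with the other 15 (adjusted p 0.0242 to 0.212), as well as with the replicate block (adjusted p = 0.0625).

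**Figure D2:**
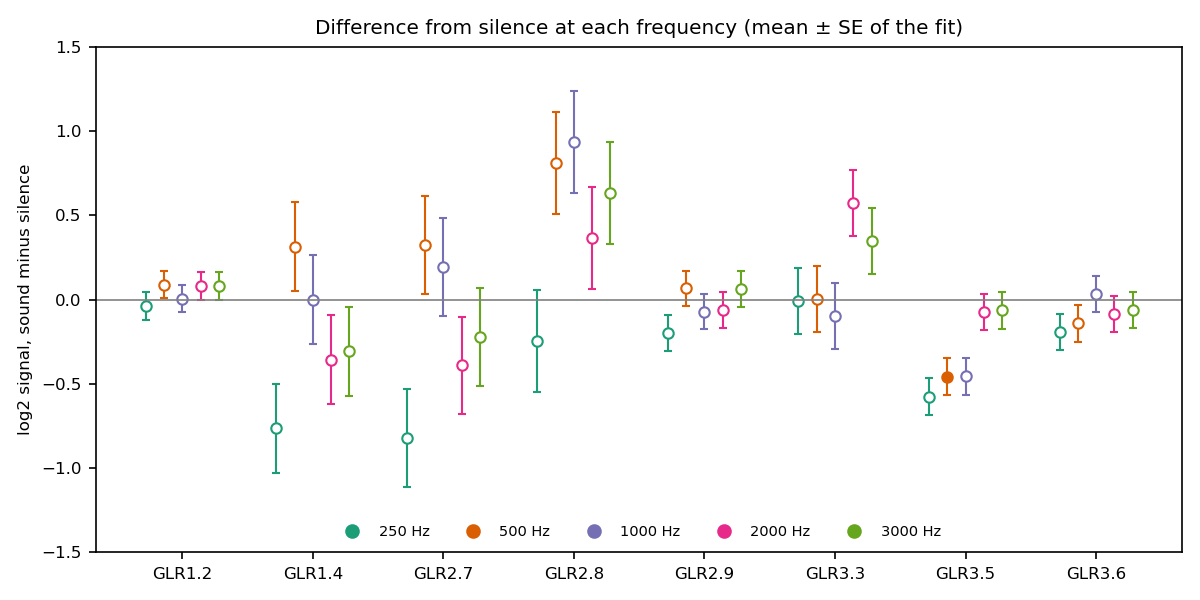
Difference of each GLR gene from silence (y axis, log2 signal at a frequency minus that in silence, mean and SE of the limma fit, n = 3 arrays a group) for the 8 genes along the x axis, with frequencies in colour. The filled point, GLR3.5 at 500 Hz, is the 1 difference with an adjusted p under 0.05. GLR1.4 and GLR2.7 lie lowest at 250 Hz, and GLR2.8 lies above 0 at the other 4 frequencies.

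Among the frequencies themselves, which leaves the levels in silence aside, GLR3.5 was again the 1 of 8 members called by the moderated F test over the 5 sound groups (F = 9.56, limma adjusted p = 0.0129, with 15.6% of all probe sets called). Its 9 arrays at 250, 500 and 1000 Hz spanned 5.98 to 6.27 and its 6 arrays at 2000 and 3000 Hz spanned 6.29 to 6.78. In direct comparisons it was higher at 2000 than at 250 Hz by 0.50 ± 0.11 (limma adjusted p = 0.0199, 3.87% of probe sets called), at 3000 than at 250 Hz by 0.51 ± 0.11 (adjusted p = 0.0120, 8.77% called), and at 3000 than at 500 Hz by 0.39 ± 0.11 (adjusted p = 0.0295, 11.9% called). The differences at 2000 against 500 Hz (0.38 ± 0.11, limma adjusted p = 0.0627) and at 2000 against 1000 Hz (0.38 ± 0.11, 0.0690) were not called. Neither was that at 3000 against 1000 Hz (0.39 ± 0.11, 0.0690). The call at 2000 against 250 Hz was lost without 250 Hz replicate 1 or 2 or 2000 Hz replicate 1 or 3 (adjusted p up to 0.101). At 3000 against 250 Hz it was lost without 250 Hz replicate 1 or 3000 Hz replicate 1 (0.0517 and 0.0520), and at 3000 against 500 Hz without 500 Hz replicate 1 or 2 or 3000 Hz replicate 1 or 2 (up to 0.138). These sets of arrays are also those with the lower and the higher spike controls, and between them frequency and spike signal cannot be told apart. The control arrays, which belong to the set with the lower spike signal, had GLR3.5 signals of 6.52 to 6.66. Within each set the frequencies were not called different: the F test among 250, 500 and 1000 Hz gave F = 1.06 (adjusted p = 0.627), and 3000 Hz minus 2000 Hz was 0.01 ± 0.11 (95% interval -0.22 to 0.24).

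GLR1.4 and GLR2.7 had their lowest signals at 250 Hz and their highest sound-group means at 500 Hz. GLR1.4 is a channel opened by hydrophobic amino acids such as methionine, as shown in frog oocytes, and GLR2.7 acts with its neighbours in calcium entry on pathogen perception. The GLR1.4 signals were 5.80, 5.93 and 5.94 at 250 Hz, 6.93, 7.01 and 6.96 at 500 Hz, and 6.62, 6.85 and 6.49 at 1000 Hz. At 2000 Hz they were 6.36, 6.21 and 6.32, and at 3000 Hz 6.51, 6.65 and 5.88. The 500 Hz arrays lay above all other sound arrays, and the 250 Hz arrays below those of 500, 1000 and 2000 Hz.

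The GLR2.7 signals were 6.63, 6.40 and 6.95 at 250 Hz, 7.99, 7.94 and 7.49 at 500 Hz and 7.59, 7.87 and 7.56 at 1000 Hz. They were 7.05, 7.21 and 7.01 at 2000 Hz and 7.03, 7.64 and 7.11 at 3000 Hz. All 3 arrays at 250 Hz lay below every other sound array, while the 500 and 1000 Hz arrays overlapped each other. For the splits among sound arrays of GLR2.7, GLR1.4 and GLR3.5, the share over all probe sets is not reported here.

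Both genes were higher at 500 than at 250 Hz, GLR1.4 by 1.08 ± 0.26 (2.11-fold, limma adjusted p = 0.0395) and GLR2.7 by 1.15 ± 0.29 (2.21-fold, adjusted p = 0.0430). They were the 2 of 8 members called in this comparison, where 3.4% of probe sets were called, 1.21% as higher. All 8 members had a positive difference there, with a median of 0.20 against 0.02 over all probe sets. All 8 were also positive at 2000 and at 3000 against 250 Hz (medians 0.42 and 0.41, against 0 and 0.01 over all probe sets). At 1000 against 250 Hz 7 of 8 were (median 0.175, against 0.03). These comparisons share the same 3 arrays at 250 Hz, so they are not independent. The share of all probe sets with a positive difference is not reported here. Of the calls of GLR1.4 and GLR2.7 at 500 against 250 Hz, that of GLR1.4 was lost without 500 Hz replicate 3. Both calls were lost without 250 Hz replicate 1 or 2 or 500 Hz replicate 1 or 2 (limma adjusted p up to 0.151). They were lost too with the replicate block (adjusted p = 0.0563 and 0.0572) and in the 12 arrays of the lower spike set (adjusted p = 0.0747 and 0.0929). The differences themselves ranged from 1.02 to 1.31 in these settings and with each array left out.

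Against silence, neither GLR1.4 nor GLR2.7 was called at any frequency. Their controls spread widely, with GLR1.4 at 6.41, 6.06 and 7.49 and GLR2.7 at 7.03, 7.01 and 8.40. Control replicate 3 was thus the highest of all 18 arrays for both genes, and the control SDs of 0.75 and 0.80 exceeded those of every sound group, 0.04 to 0.41 for GLR1.4 and 0.11 to 0.33 for GLR2.7. The differences at 250 Hz were -0.76 ± 0.26 and -0.82 ± 0.29 (limma adjusted p = 0.172 and 0.181), and all 250 Hz arrays lay below all controls for both. Groups that did not overlap were found at 250 Hz for 5 of 8 members and for 13.4% of all probe sets. Without control replicate 3 these differences were -0.35 and -0.36 (adjusted p = 0.442 and 0.468), whereas without control replicate 2 they were -1.06 and -1.06 (adjusted p = 0.0136 and 0.0404). Without control replicate 2, 2175 of the 22746 probe sets were called at 250 Hz, against 10 with all arrays. At 500 Hz the differences were 0.31 ± 0.26 and 0.33 ± 0.29, and without control replicate 3 they became 0.73 and 0.79 (adjusted p = 0.0366 and 0.0381). The size and the call of these comparisons with silence therefore rested on single control arrays.

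A fit of the 15 sound arrays alone, chosen after the data had been seen, has residual errors free of the control spread. In it the F test among the frequencies called 5 of 8 members, with 27.4% of all probe sets called. They were GLR1.4 (adjusted p = 0.00285), GLR2.7 (0.00303), GLR3.5 (0.00776), GLR3.3 (0.0219) and GLR2.8 (0.0468). In the fit of all 18 arrays the values for GLR2.7, GLR2.8, GLR1.4 and GLR3.3 were 0.0511, 0.0577, 0.0602 and 0.0752. In the 15-array fit, GLR1.4 was higher at 1000 than at 250 Hz by 0.76 ± 0.16 (limma adjusted p = 0.0328) and GLR2.7 by 1.01 ± 0.18 (adjusted p = 0.0193), where 1.67% of probe sets were called. Both were lower at 2000 than at 500 Hz, by -0.67 ± 0.16 and -0.72 ± 0.18 (adjusted p = 0.0172 and 0.0245, 9.32% called), across the 2 spike sets. In the fit of all 18 arrays these differences were not called. There the limma adjusted p was 0.185 and 0.126 at 1000 against 250 Hz, and 0.166 and 0.177 at 2000 against 500 Hz. Neighbouring means in the order of levels, 500 over 1000 Hz and 3000 over 2000 Hz, were not called different for either gene.

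GLR2.8, an immune-related neighbour of GLR2.7, had signals of 4.22, 4.73 and 4.82 in silence and 4.46, 4.23 and 4.35 at 250 Hz. They were 5.31, 5.89 and 5.01 at 500 Hz and 5.41, 6.08 and 5.09 at 1000 Hz. At 2000 Hz they were 4.73, 5.01 and 5.13, and at 3000 Hz 4.98, 5.97 and 4.72. Control replicate 1 and all arrays at 250 Hz lay below the lower quartile of the array (4.53 to 4.65). On 0 of the 18 arrays was GLR2.8 above the array median. Without detection calls, whether its lowest signals were above background is unknown. All arrays of 500 and 1000 Hz lay above all controls, and replicate 2 was the highest array at 500, 1000 and 3000 Hz. The differences from silence were 0.81 ± 0.30 at 500 Hz, 0.94 ± 0.30 at 1000 Hz and 0.63 ± 0.30 at 3000 Hz (limma adjusted p = 0.101, 0.172 and 0.219). Without 3000 Hz replicate 2 the difference at 3000 Hz was 0.26. GLR2.8 passed the F test among the frequencies without 1000 Hz replicate 3 or 3000 Hz replicate 2. At 500 Hz and at 1000 Hz, 2 of 8 members had groups that did not overlap, GLR2.8 above and GLR3.5 below the controls, against 22% and 14.1% of all probe sets.

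GLR3.3, the channel whose loss in Arabidopsis, together with that of GLR3.6, blocks the spread of wound signals between leaves, was highest at 2000 and 3000 Hz. Its signals were 7.23, 6.70 and 7.14 at 2000 Hz and 6.89, 6.95 and 6.56 at 3000 Hz. In silence they were 6.87, 6.45 and 6.03. The 9 arrays with sound of at most 1000 Hz lay between 6.16 and 6.74. The controls overlapped every frequency. The difference at 2000 Hz was 0.57 ± 0.20 (1.49-fold, limma adjusted p = 0.116, where 2.89% of probe sets were called). It was 0.78 without control replicate 1 (adjusted p = 0.0451) and 0.36 without control replicate 3 (adjusted p = 0.366). At 3000 Hz, where 6.6% of probe sets and 0 of 8 members were called in limma (0 members also at an unadjusted p under 0.05), it was 0.35 ± 0.20, with 0.56 without control replicate 1 and 0.14 without control replicate 3. GLR3.3 passed the F test among the frequencies without 2000 Hz replicate 2. In the fit of the 15 sound arrays GLR3.3 was higher at 2000 than at 1000 Hz by 0.67 ± 0.16 (limma adjusted p = 0.0209, 8.2% of probe sets called), between the lower and the higher spike set. Summed signals of the 3 root markers measured, on the log2 scale, were 6.45 to 6.85 at 2000 Hz and 7.63 to 7.70 at 3000 Hz. They were 6.90 to 8.29 at 250 Hz, 6.47 to 7.05 at 500 Hz, 6.86 to 7.71 at 1000 Hz and 6.84 to 8.88 in silence. Of these markers only PYK10 varied widely, and their part in the result was not tested.

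GLR3.6, the partner of GLR3.3 in wound signalling, stayed between 5.34 and 5.77 on all 18 arrays. Its signals at 250 Hz, 5.46, 5.44 and 5.40, lay below the controls at 5.52, 5.77 and 5.58, with a difference of -0.19 ± 0.11 (limma adjusted p = 0.419). Its largest positive difference from silence was 0.03 ± 0.11, at 1000 Hz. The 95% intervals of its 5 differences reached from -0.42 to 0.26. GLR3.6 and GLR3.3 did not move together over the arrays (Pearson r = -0.21, permutation p = 0.396, n = 18).

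GLR1.2, known from pollen tube growth, and GLR2.9, the third gene of the chromosome 2 group, lay below the lower quartile of the array (4.53 to 4.65) on all 18 arrays. GLR1.2 ranged from 4.16 to 4.50 and GLR2.9 from 3.86 to 4.43. The deposited table gives no detection calls, so whether these transcripts were above background is unknown. The pollen marker ANX1 lay at 4.06 to 4.49. GLR1.2 differed from silence by -0.04 to 0.09 and GLR2.9 by -0.20 to 0.07 over the 5 frequencies, and 0 of these differences were called in limma (0 also at an unadjusted p under 0.05).

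**Figure D3:**
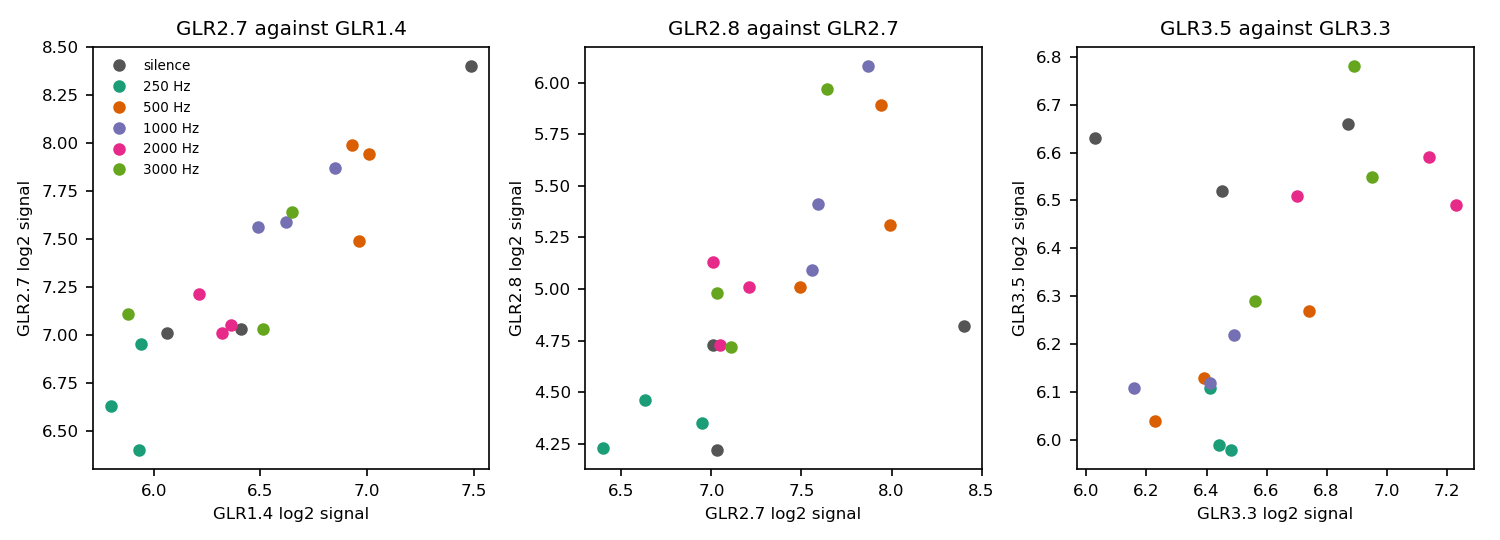
Log2 signals of GLR2.7 against GLR1.4, GLR2.8 against GLR2.7 and GLR3.5 against GLR3.3, with 1 point for each of the 18 arrays and the groups in colour. GLR1.4 and GLR2.7 rise together from the 250 Hz arrays to the 500 Hz arrays, with control replicate 3 at the upper right (7.49 and 8.40), and in the middle panel that array stands apart with a GLR2.8 signal of 4.82.

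The signals of GLR2.7 followed those of GLR1.4 and of GLR2.8 over the arrays, while for GLR1.4 and GLR2.8 only the rank correlation passed. Correlations were computed for all 28 pairs of members over the 18 arrays, with permutation p-values adjusted over the 28 pairs. The arrays share conditions within a group, so they are not fully independent. GLR1.4 and GLR2.7, which lie on different chromosomes, had Pearson r = 0.90 (permutation p = 1e-05, the smallest the permutations can give, adjusted p = 0.00028) and Spearman rho = 0.85 (permutation adjusted p = 0.00056). Without the 2 arrays farthest from the GLR1.4 median r was 0.84. It was 0.94 in the 12 arrays of the lower spike set and 0.46 in the 6 of the higher set. The deviations of single arrays from their group means had r = 0.80 over the 18 arrays, but 0.39 over the 15 sound arrays, which leave out the control replicate high for both genes. Without the controls, r of the signals themselves was 0.87.

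GLR2.7 and GLR2.8 had r = 0.68 and rho = 0.72 (permutation adjusted p = 0.0161 and 0.0115), and r = 0.88 without the 2 arrays farthest from the GLR2.7 median. Their r was 0.72 and 0.88 within the lower and the higher spike set and 0.55 for deviations from group means (0.73 over the 15 sound arrays). GLR1.4 and GLR2.8 had r = 0.58 and rho = 0.66 (permutation adjusted p = 0.0871 and 0.0326), and 0.73 without the 2 farthest arrays. Within the sets their r was 0.62 and 0.70, and for deviations from group means it was 0.45 (0.67 over the 15 sound arrays). The probe sets with low signals, GLR1.2 and GLR2.9, had r = 0.69 and rho = 0.64 (permutation adjusted p = 0.0161 and 0.0374), but r = 0.45 without the 2 farthest arrays, and 0.68 and 0.70 within the sets. GLR3.3 and GLR3.5 had r = 0.54 and rho = 0.53 (permutation adjusted p = 0.108 and 0.130), with 0.50 without the 2 farthest arrays. Their r was 0.18 and 0.42 within the lower and the higher spike set and 0.82 over the 15 sound arrays, which span both sets.

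The order of the group means was not the same for all members. GLR3.5 had its highest mean in silence, 6.60 ± 0.07 (SD, n = 3), and its lowest at 250 Hz, 6.03 ± 0.07. GLR1.4, GLR2.7 and GLR2.8 also had their lowest means at 250 Hz, 5.89 ± 0.08, 6.66 ± 0.28 and 4.35 ± 0.12 (SD, n = 3), but their highest at 500 or 1000 Hz. For GLR2.8 all arrays at 250 Hz lay below the lower quartile of the array. GLR3.3 had its highest mean at 2000 Hz, 7.02 ± 0.28, and its lowest at 1000 Hz, 6.35 ± 0.17 (SD, n = 3). The group means spanned 1.08 to 1.18 log2 units for GLR1.4, GLR2.7 and GLR2.8, 0.58 and 0.67 for GLR3.5 and GLR3.3, and 0.13 to 0.26 for GLR1.2, GLR2.9 and GLR3.6. No member was called between 3000 and 2000 Hz in limma (0 also at an unadjusted p under 0.05), where 3.17% of probe sets were.

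The median difference of the 8 GLR genes from silence was -0.22 at 250 Hz, 0.08 at 500 Hz, 0.00 at 1000 Hz, -0.07 at 2000 Hz and 0.00 at 3000 Hz. The medians over all probe sets lay between -0.02 and 0.01. At 250 Hz 0 of 8 members were positive, and 3 of 8 had an unadjusted p under 0.05 (GLR1.4, GLR2.7 and GLR3.5), against 15.8% of all probe sets. The same 250 Hz arrays entered the comparisons of the other frequencies with 250 Hz.

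Of 69 further symbols of calcium signalling (pumps, annexins, calmodulins, calreticulins, NADPH oxidases and others), 2 were matched by symbol to a probe set with a single gene. CRT1b (AT1G09210), a calreticulin that binds calcium in the endoplasmic reticulum, had differences from silence of -0.21 ± 0.17 at 500 Hz to 0.33 ± 0.17 at 3000 Hz and was not called at any frequency (adjusted p of at least 0.247). The probe set with the symbol ATCRT1 (AT5G56340) was matched by symbol alone, and no role is given for it. Whether it belongs to calcium signalling was therefore not established. It rose at 500 Hz by 0.86 ± 0.23 (limma adjusted p = 0.0354), where 8.91% of all probe sets were called. Its signals of 8.29, 9.08 and 8.96 overlapped those of 7.28, 8.45 and 8.02 in silence.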

How the data were processed

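The log2 signals deposited by the authors, 1 column per array, were used as given. Per the submitters' processing notes the tools were Affymetrix Expression Console 1.1, RMA and MAS5. Which of the last pair gave the values is not stated. RMA-type scaling draws arrays towards one distribution, so a shift common to most genes would not be seen. The array medians were 6.51 to 6.63, and no further scaling was applied. After removal of 64 control probe sets, 22746 were tested. The platform table names a single gene for 13513 probe sets and several for 503, and 8730 have none in it. The members, lists and tests were chosen with earlier results of these data known.

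All 6 groups were fitted with limma 3.58.1 in R 4.3.3 (lmFit, eBayes with an intensity trend, 12 residual degrees of freedom, two-sided). Of the 10 direct frequency comparisons, 3000 against 2000 Hz was planned and the others were chosen later, with the data in view. Members were named where called in a comparison, where their difference from silence was the largest or smallest of a role group, or where they were among the 6 smallest F test p-values, and all 8 are described. Correlations used 100000 permutations, two-sided. The fit was tested on simulated data. Alternatives covered scaling, a signal filter, the trend, array weights, fewer arrays, leaving out each array and the replicate block. Deviations of same-numbered arrays from their group means correlated at -0.32 to 0.35 (median -0.002), and those of other-numbered arrays at -0.40 to 0.39 (median 0.03). No pairing by replicate number was thus seen over all probe sets. Such ranges cannot exclude a pairing that touches only some genes. The number of arrays limits the precision. RefSeq was used for gene names and for which genes are neighbours, and no sequences or coordinates are printed.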

Additional observations from a re-analysis of the deposited data

Results flagged for a closer look

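GLR3.5 differed between frequencies by the moderated F test over the 5 sound groups (limma adjusted p = 0.0129), with means of 6.03, 6.15 and 6.15 at 250, 500 and 1000 Hz and of 6.53 and 6.54 at 2000 and 3000 Hz (n = 3 each). The adjusted p stayed between 0.00790 and 0.0328 when any 1 of the 15 sound arrays was left out. Spike control signals were higher on the 2000 and 3000 Hz arrays, and their part in the result was not tested.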

How the results depend on the processing

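The count of 8 GLR genes called changed as follows. At 250 Hz against silence it was 0, and 1 with array weights. At 500 Hz it was 1, and 0 with array weights, in the 6 arrays alone, or when only probe sets at or above the median signal were kept, a filter that leaves 2 of the 8 members. For the average of the frequencies it was 1, and 0 with median centring, quantile normalization, that filter, array weights or the replicate block. For the F test it was 1, and 4 with median centring, 2 with quantile normalization, 5 with array weights, 2 with the replicate block, 0 among 250, 500 and 1000 Hz in the 12 arrays of the lower spike set, and 5 in the 15 sound arrays. Leaving out each array gave 0 to 3 at 250 Hz, 0 to 2 at 500 Hz, 0 to 1 at 1000 Hz, 0 to 1 at 2000 Hz, 0 to 0 at 3000 Hz, 0 to 1 for the average, 1 to 2 for the F test and 0 to 0 for 3000 against 2000 Hz. The called differences kept their direction in every alternative run. The counts of 0 at 1000, 2000 and 3000 Hz and for 3000 against 2000 Hz came from every alternative run other than leaving out control replicate 2 (GLR3.5 at 1000 Hz) or control replicate 1 (GLR3.3 at 2000 Hz). Calls over all 22746 probe sets changed as well. At 250 Hz 10 became 141 with array weights. At 500 Hz 2026 became 1277 with array weights, 709 in the 12 arrays and 0 in the 6 arrays alone. For the average, 840 became 802 with median centring, 887 with quantile normalization, 341 with array weights and 573 with the replicate block. The F test's 3556 became 3637 with median centring, 3567 with quantile normalization, 3231 with the replicate block and 185 in the 12 arrays. It became 6238 in the 15 sound arrays and 8592 with array weights. In the planned comparisons the replicate block changed no call other than those named here. In the other frequency pairs only members already called were checked with the block, so added calls were not sought. There the calls of GLR1.4 and GLR2.7 at 500 against 250 Hz were lost. The cause of these changes was not tested.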
